A study of Mus musculus with 6 samples.

Results

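Collagen chains and the enzymes and helper proteins that modify and process them were described in mouse 4TO7 cells with and without Six2 overexpression. The members were chosen by gene symbol in the platform annotation of the array, as any collagen chain together with a list of 13 modifying or processing proteins. Only array rows annotated to a single gene were used. This gave 54 genes of 20848 measured, 41 of them collagen chains, and 2104 of the 241576 rows (probe sets) of the table. Most probe sets cover a part of a gene, and each gene was given the median log2 intensity of its probe sets.

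4TO7 is a mammary tumour cell line of the mouse. Six2 is a transcription factor of the homeobox class. The control group was 4TO7 cells that carried pcDNA, a plasmid expression vector, and the Six2 group was 4TO7 cells labelled as overexpressing Six2, with 3 arrays each. All 6 arrays came from the same line, given in the labels as tumor 4TO7, with no other treatment named there. The promoter that drives Six2, its species and whether the cells were a pool or 1 clone were not stated in the labels. Nothing says that replicates were grown as separate cultures, so a p-value here covers the spread from array to array, which may be technical. The number of arrays limits the precision.

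Collagens are extracellular matrix proteins made of chains that wind into a triple helix. In the endoplasmic reticulum, prolyl and lysyl hydroxylases modify the chains and the chaperone HSP47, encoded by Serpinh1, binds the folded helix. Outside the cell, proteinases cut off the propeptides of fibrillar collagens and lysyl oxidases start the cross-links between molecules. In mammary tumours most fibrillar collagen is known to come from stromal fibroblasts, while epithelial and tumour cells also make basement membrane collagen.

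Several checks on the series bear on these values. The Six2 gene itself read 3.69, 3.25 and 3.62 in control replicates 1 to 3 and 3.60, 3.94 and 4.03 in the Six2 arrays, and it did not pass at 0.33 higher (SE 0.16, limma adjusted p = 0.215). Of its 4 probe sets 3 differed above 0, and the gene passed as higher under 3 of the 14 alternatives tried. These were the mean of probe sets, at 0.38 (limma adjusted p = 0.0242), and the brightest probe set and dim rows dropped, both at 1.19 (limma adjusted p = 0.0480 and 0.0276). The direction of every difference rests on the labels. Cdh1, which encodes E-cadherin, fell by 3.16 on the log2 scale (limma adjusted p = 6.56e-05). Correlations over genes were 0.983 to 0.987 between arrays of different groups and 0.992 to 0.994 between Six2 arrays. Of 7 mammary epithelial markers 4 were lower and none higher, with a list mean of 7.12 to 7.27 in control arrays and 6.07 to 6.29 in Six2 arrays. Of 7 fibroblast markers 1 was lower (Lum) and 1 had a mean over 6, and the list mean was 3.69 to 3.78 in control arrays and 3.41 to 3.71 in Six2 arrays. None of 4 endothelial and none of 6 myoepithelial or smooth muscle markers changed, and 1 of 5 leukocyte markers was lower (Ptprc). Ptprc was dim, with a mean of 4.10 (limma adjusted p = 0.0488), and passed under 2 of the 14 alternatives. The part of these markers in the results on collagen genes was not tested.

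Of the 54 members, 7 changed with Six2 overexpression, which is 12.96%, against 14.7% of all genes (3068 of 20848) by the same limma test. A single member was higher, the type VI collagen chain gene Col6a3. The other 6 changed members were lower, namely Col6a1 and Col6a2 of the same collagen, the lysyl oxidase genes Lox and Loxl3, the lysyl hydroxylase gene Plod1 and the procollagen C-proteinase enhancer gene Pcolce. By direction, 1.85% of members were higher and 11.1% lower, against 6.70% and 8.02% of all genes. The share changed in all was close to the background. The shares by direction rest on 1 and 6 genes, and none of these shares is a result about collagens as a group. The median difference over the 54 members was -0.10, over all genes -0.05, and the members ranged from -1.11 to 0.82. Differences are given in log2 units as Six2 minus control, and a gene was called changed where its p, adjusted by Benjamini-Hochberg over the 20848 genes, was under 0.05. As each array reads the RNA of a whole sample, fewer cells that express a gene and less RNA per cell cannot be told apart.

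Many members were dim on these arrays. A mean over 6 was reached by 16 of the 54 members (29.6%) and by 43.0% of all genes. Of these 16 members 5 changed (31.3%), against 24.6% of all genes over that mean. Among the 16 were 7 of the 41 chains (Col4a1, Col4a2, Col4a5, Col6a1, Col6a3, Col8a1 and Col18a1), and 9 of the 13 enzymes and helpers. Of the chains, 1 was higher and 2 were lower, with a median difference of -0.03. Of the enzymes and helpers, none was higher and 4 were lower, with a median difference of -0.19. The table carries no detection calls, so a dim gene was not called absent.

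**Figure D1:**
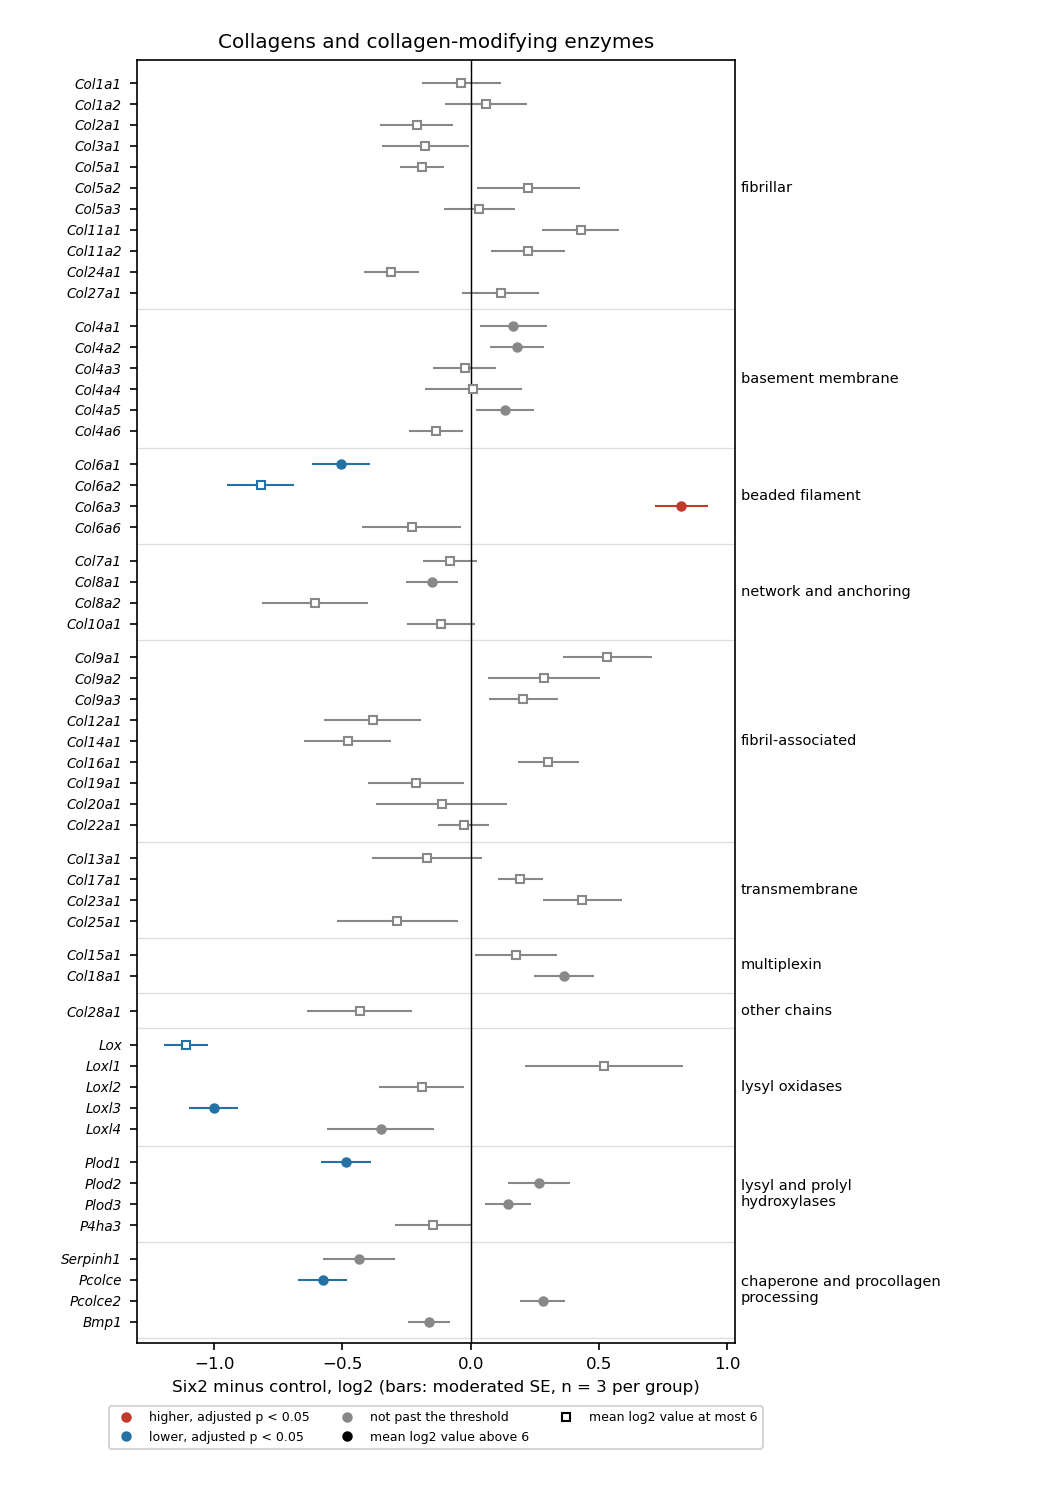
Difference between Six2 and control arrays (log2, horizontal axis) for each of the 54 members, grouped by class, 3 arrays per group. Bars show the moderated SE from limma. Red or blue marks the 7 genes that passed, Col6a3 (red) to the right of 0 and the other 6 (blue) to the left. Filled circles are genes with a mean over 6, and open squares are dimmer genes.

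The genes of type VI collagen, which forms beaded filaments around cells, are shown here since they hold 3 of the 7 changes and moved in opposite directions. The stretches from 250 bases before to 50 bases after the start of transcription are printed 5′ to 3′ in the direction of the gene, from the RefSeq table of build GRCm38.p6. Col6a1 and Col6a2 lie on chromosome 10 and Col6a3 on chromosome 1, all on the minus strand. The windows are chr10:76725995-76726294 for Col6a1, chr10:76623355-76623654 and chr10:76623581-76623880 for 2 starts of Col6a2, whose windows overlap, and chr1:90843922-90844221 for Col6a3. Capitals mark matches to the GC box GGGCGG, read as CCGCCC on the opposite strand.
Col6a1: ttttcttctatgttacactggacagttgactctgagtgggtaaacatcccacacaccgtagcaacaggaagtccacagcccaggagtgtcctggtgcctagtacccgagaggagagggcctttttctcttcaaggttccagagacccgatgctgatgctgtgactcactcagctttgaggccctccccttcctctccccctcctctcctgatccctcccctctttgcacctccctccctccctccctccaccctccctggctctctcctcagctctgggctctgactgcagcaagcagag
Col6a2, first window: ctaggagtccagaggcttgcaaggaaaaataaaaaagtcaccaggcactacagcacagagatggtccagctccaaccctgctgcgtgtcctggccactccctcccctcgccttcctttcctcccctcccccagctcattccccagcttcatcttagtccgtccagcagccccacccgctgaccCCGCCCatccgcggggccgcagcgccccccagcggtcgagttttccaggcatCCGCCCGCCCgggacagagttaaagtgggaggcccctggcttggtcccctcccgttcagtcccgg
Col6a2, second window: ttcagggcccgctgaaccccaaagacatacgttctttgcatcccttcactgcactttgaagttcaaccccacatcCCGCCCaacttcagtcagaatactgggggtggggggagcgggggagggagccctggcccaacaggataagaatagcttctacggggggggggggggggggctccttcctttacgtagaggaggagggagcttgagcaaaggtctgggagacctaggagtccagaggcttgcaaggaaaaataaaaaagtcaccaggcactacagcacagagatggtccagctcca
Col6a3: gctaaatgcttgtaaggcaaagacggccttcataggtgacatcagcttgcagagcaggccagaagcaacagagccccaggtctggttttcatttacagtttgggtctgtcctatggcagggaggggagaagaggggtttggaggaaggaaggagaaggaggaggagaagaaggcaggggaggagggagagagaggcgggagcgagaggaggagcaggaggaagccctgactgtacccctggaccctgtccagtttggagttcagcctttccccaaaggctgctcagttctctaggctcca

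A set of 3 short motifs was searched on both strands, the GC box GGGCGG, the TATA box TATAAA and the letters TGATAC, a core of the sites that Six2 and related homeoproteins are known to bind. Among 32851 promoters of 300 bases in that table, 35.7% held the GC box, 13.6% the TATA box and 5.46% TGATAC. The first window of Col6a2 held 3 GC boxes, 2 of which share letters, and the second held 1. The windows of Col6a1 and Col6a3 held no match to any of the 3 motifs, and no window of the type VI genes held TATAAA or TGATAC. The share of G and C was 57.3% in the window of Col6a1, 64.3% and 56.7% in those of Col6a2 and 56.3% in that of Col6a3. Of the other changed members, Plod1 and Pcolce had a window in the table. Plod1 held 3 GC boxes and 1 TATA box, Pcolce held 1 GC box, and neither held TGATAC.

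Col6a3, which encodes the large alpha3 chain of type VI collagen, was the single member that rose. It read 7.52, 7.22 and 7.39 in the control arrays and 8.19, 8.25 and 8.16 in the Six2 arrays. The Six2 arrays were all higher, with no overlap. The difference was 0.82 (SE 0.10, limma adjusted p = 0.00381), a 1.77-fold higher value. All 47 probe sets of the gene differed in the same direction, by 0.19 to 2.07, and 5 passed as single probe sets. The genes of chromosome 1 with a mean over 6 had a median difference of 0.44, with 272 of 497 higher and 15 lower. With that median subtracted, an alternative that shifts genes with a mean over 6 and leaves dimmer genes as they are, the difference of Col6a3 was 0.38 and did not pass (limma adjusted p = 0.0632). The part of the chromosome-wide shift was not tested otherwise.

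Col6a1 and Col6a2, which encode the alpha1 and alpha2 chains and neighbour each other in the genome, both fell. Col6a1 read 7.73, 7.87 and 7.88 in the control arrays and 7.37, 7.45 and 7.14 in the Six2 arrays, with no overlap between the groups. It fell by 0.50 (SE 0.11, limma adjusted p = 0.0270), 1.42-fold. Of its 31 probe sets 28 differed below 0, and none passed alone. The call for Col6a1 was lost when any of 5 arrays was left out, all but Six2 replicate 2, with adjusted p of 0.0564, 0.0908 and 0.0773 without control replicates 1, 2 and 3 and of 0.0630 and 0.0525 without Six2 replicates 1 and 3 (limma). With the replicate number as a block its adjusted p was 0.0693.

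Col6a2 read 5.32, 5.17 and 5.10 in the control arrays and 4.41, 4.57 and 4.15 in the Six2 arrays. The groups did not overlap, though the gene was dim. It fell by 0.82 (SE 0.13, limma adjusted p = 0.00873), 1.76-fold. Its 28 probe sets were split, 21 below 0 and 7 above, and the median of their own differences was -0.41, smaller than the difference of the gene's median values. The call was lost on its brightest probe set, at -0.30 (limma adjusted p = 0.310). It was also lost at -0.36 (limma adjusted p = 0.364) once dim rows were dropped, meaning the lowest 30% of rows by mean value, up to 3.98. Col6a6, another type VI chain gene, differed by -0.23 (limma adjusted p = 0.482).

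Set against each other within each array, the type VI genes give shifts that follow from the differences above. These and the other pair shifts below restate the differences of the genes and are no further support. Col6a3 minus Col6a1 ran from -0.65 to -0.21 in the control arrays and from 0.79 to 1.02 in the Six2 arrays, a shift of 1.33. Col6a3 minus Col6a2 ran from 2.06 to 2.29 in the control arrays and from 3.67 to 4.01 in the Six2 arrays, a shift of 1.64. Both shifts had p = 0.1 in an exact two-sided permutation test, the smallest that 3 against 3 arrays can give, and 0.133 after adjustment over 8 gene pairs chosen after their values were seen. These offsets compare changes and not levels, since probe sets of different genes have no common scale.

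**Figure D2:**
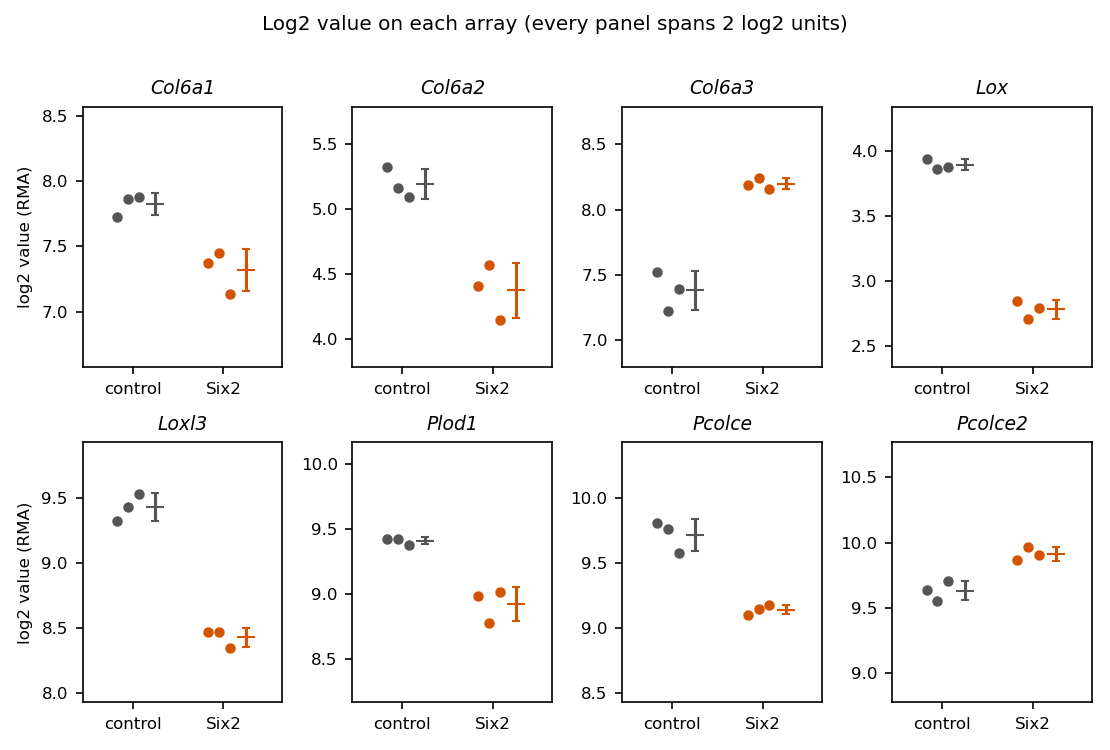
Log2 value of each of the 7 changed members in each of the 3 control and 3 Six2 arrays (points), with group means (bars across) and SD (vertical bars). Pcolce2, which did not pass, is also shown. Col6a3 has its Six2 points above its control points, and the other 6 changed members have them below, with no overlap in any of the 7.

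The lysyl oxidase family oxidises lysines of collagen and elastin for cross-linking, and 2 of its 5 members fell. Loxl3 read 9.32, 9.43 and 9.53 in the control arrays and 8.47, 8.47 and 8.35 in the Six2 arrays. The groups were far apart against their spread. The difference was -1.001 (SE 0.10, limma adjusted p = 0.00141), which is 2.00-fold lower. All 14 probe sets of Loxl3 lay below 0, at -1.27 to -0.58, and 9 passed alone. Loxl3 was the single changed member that passed under all 14 alternatives tried, at -1.13 to -0.93. A further 4 probe sets are annotated to both Loxl3 and its neighbour Htra2, and they differed by -0.31 to -0.15 without passing.

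Lox, the founding member of the family, was dim on every array. It read 3.94, 3.86 and 3.87 in the control arrays and 2.85, 2.70 and 2.79 in the Six2 arrays. All 3 Six2 arrays lay lower than all 3 control arrays. It fell by 1.11 (SE 0.087, limma adjusted p = 0.000702), 2.16-fold. All 11 probe sets of Lox differed below 0, by -2.44 to -0.10, with a median of -0.74, but none had a mean over 6 and 1 passed alone. That probe set read 5.21 on average in control arrays and 2.77 in Six2 arrays. The call was lost on the brightest probe set, at -0.84 (limma adjusted p = 0.125), and once dim rows were dropped, at -0.63 (limma adjusted p = 0.263).

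The other 3 lysyl oxidase genes did not pass. Loxl4 differed by -0.35 (SE 0.21, limma adjusted p = 0.312), with overlapping groups but all 16 of its probe sets below 0. Loxl1 differed by 0.52 with the widest error of the members (SE 0.31, limma adjusted p = 0.311). Control replicate 3 of Loxl1 read 2.93 and Six2 replicate 3 read 4.53, while the other 4 arrays lay between 3.86 and 4.03. Loxl2 differed by -0.19 (limma adjusted p = 0.497). The shift of Loxl3 against Loxl4 within arrays was -0.65 (exact permutation p = 0.2, adjusted 0.229 over the 8 pairs), in a design where no pair could reach 0.05.

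Lysyl hydroxylases prepare the lysines that are later glycosylated or cross-linked, and 1 of the 3 genes changed. Plod1 read 9.43, 9.42 and 9.38 in the control arrays and 8.98, 8.78 and 9.01 in the Six2 arrays. The control arrays were tight and all Six2 arrays lay lower. It fell by 0.48 (SE 0.10, limma adjusted p = 0.0190), 1.40-fold. All 19 probe sets lay below 0, at -0.69 to -0.12, and 1 passed alone. The call of Plod1 was lost without control replicate 1, control replicate 2 or Six2 replicate 2, with adjusted p of 0.0661, 0.0679 and 0.0559 (limma). It was also lost on the brightest probe set (adjusted p = 0.0943, limma) and with the replicate block (adjusted p = 0.0596, limma).

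Plod2, which hydroxylates lysines in the telopeptides, differed by 0.27 (SE 0.12, limma adjusted p = 0.194). Plod3, which also carries glycosyltransferase activity, read 9.91, 9.82 and 9.90 in control arrays and 10.05, 9.92 and 10.08 in Six2 arrays. Its groups were apart, yet the difference of 0.15 did not pass (SE 0.090, limma adjusted p = 0.329). Set against Plod1 within each array, Plod2 shifted by 0.75 and Plod3 by 0.63, each with an exact permutation p of 0.1 (adjusted 0.133). P4ha3, a prolyl hydroxylase subunit, differed by -0.15 (limma adjusted p = 0.575).

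Among the chaperone and processing genes, Pcolce, whose product enhances removal of the C-propeptide of procollagen, fell. It read 9.81, 9.76 and 9.58 in the control arrays and 9.11, 9.15 and 9.18 in the Six2 arrays. The groups did not overlap. The fall was 0.58 (SE 0.10, limma adjusted p = 0.00989), 1.49-fold. All 10 probe sets lay below 0, at -0.64 to -0.30, while none passed alone. On its brightest probe set Pcolce differed by -0.36 and did not pass (limma adjusted p = 0.121).

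Pcolce2, the related enhancer gene, read 9.64, 9.55 and 9.70 in control arrays and 9.86, 9.96 and 9.91 in Six2 arrays. All 3 Six2 arrays were higher, and all 11 probe sets differed above 0, yet the difference of 0.28 did not pass (SE 0.088, limma adjusted p = 0.0777). Pcolce2 minus Pcolce shifted by 0.86 within arrays (exact permutation p = 0.1, adjusted 0.133). Serpinh1 read 8.61, 8.57 and 8.59 in control arrays and 8.22, 8.38 and 7.86 in Six2 arrays. The groups were apart, with Six2 replicate 3 lowest, and the difference of -0.43 did not pass (SE 0.14, limma adjusted p = 0.0846). Bmp1, the C-proteinase that Pcolce assists, read 10.44, 10.39 and 10.46 in control arrays and 10.28, 10.25 and 10.27 in Six2 arrays, and did not pass at -0.16 (limma adjusted p = 0.230). Bmp1 was named after its values were seen.

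**Figure D3:**
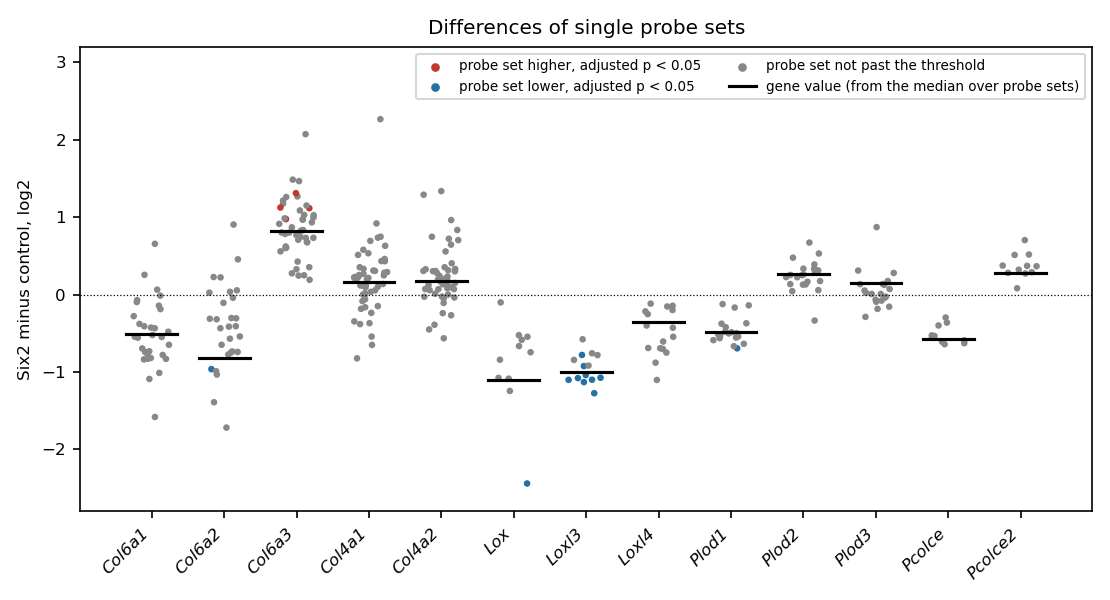
Difference between Six2 and control arrays (log2) of every probe set of the 7 changed members, each point 1 probe set. Also shown are Col4a1, Col4a2, Loxl4, Plod2, Plod3 and Pcolce2, which did not pass. Black lines give the difference of the gene value. The probe sets of Col6a3 all lie above 0, those of Lox, Loxl3, Plod1 and Pcolce all below 0, and those of Col6a1 and Col6a2 lie on both sides.

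None of the 11 fibrillar collagen chain genes passed, and none had a mean over 6, with differences from -0.31 to 0.43 and a median of 0.03. Col1a1, a chain of the main collagen of bone, skin and tumour stroma, read 5.31, 5.33 and 4.79 in control arrays and 5.07, 5.16 and 5.10 in Six2 arrays. The groups overlapped, and the difference of -0.04 had a 95% interval of -0.40 to 0.33 (limma adjusted p = 0.907). Col1a2, the other chain of type I collagen, read 4.33, 4.49 and 4.54 in control arrays and 4.66, 4.16 and 4.71 in Six2 arrays, also with overlap. Its difference of 0.06 had a 95% interval of -0.32 to 0.44 (limma adjusted p = 0.847), so a change of either gene value beyond about these bounds was not seen. Each gene value is a median over 52 probe sets, of which 11 in Col1a1 and 9 in Col1a2 had a mean over 6. In each gene 1 probe set passed alone as higher, at 1.85 in Col1a1 and 1.29 in Col1a2. Of the 52, 28 and 30 differed below 0. The sign of both genes turned under some alternatives.

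Col3a1 and Col5a2, neighbouring fibrillar genes on chromosome 1, differed by -0.18 and 0.22 (limma adjusted p = 0.546 and 0.510). Neither passed on the chromosome where the median brighter gene was 0.44 higher. The fibrillar genes with the smallest p apart from these were Col24a1 and Col11a1. Col24a1 differed by -0.31 (SE 0.11, limma adjusted p = 0.104) and Col11a1 by 0.43 (SE 0.15, limma adjusted p = 0.107), and in both the groups were apart. With dim rows dropped the sign of Col11a1 turned, to -0.18.

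The 6 genes of type IV collagen, the network of basement membranes, gave no call, with differences from -0.13 to 0.18. Col4a1 read 7.78, 7.55 and 7.87 in control arrays and 7.95, 8.05 and 7.71 in Six2 arrays, and Col4a2, transcribed away from it from a shared promoter region, read 7.57, 7.59 and 7.85 against 7.92, 7.79 and 7.84. The groups of both genes overlapped. Their differences were 0.17 and 0.18, with 95% intervals of -0.14 to 0.48 and -0.07 to 0.43. The median brighter gene of chromosome 8, where both lie, was also 0.18 higher. The pair shifted by 0.01 against each other (exact permutation p = 1). The pair Col4a3 and Col4a4 differed by -0.02 and 0.01, and the pair Col4a5 and Col4a6 by 0.13 and -0.13, none near the threshold (limma adjusted p from 0.449 to 0.980).

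Col18a1, whose product carries endostatin at its end, is a multiplexin of basement membranes and read 7.36, 7.19 and 7.25 in control arrays and 7.65, 7.80 and 7.44 in Six2 arrays. The groups did not overlap. The difference of 0.36 did not pass (SE 0.12, limma adjusted p = 0.0835), and it did pass under 4 of the 14 alternatives. The other multiplexin gene, Col15a1, differed by 0.18 (limma adjusted p = 0.516). Of the 4 network and anchoring genes, Col8a2 had the largest difference, -0.61 (SE 0.21, limma adjusted p = 0.0970), with dim values. Col8a2 turned to 0.41 with dim rows left out. Col8a1, the brighter chain gene of the same collagen of vessel walls and cornea, read 7.96 to 8.06 in Six2 arrays and 8.02 to 8.29 in control arrays, and differed by -0.15 (limma adjusted p = 0.374).

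The 9 genes of fibril-associated collagens, which sit on the surface of fibrils, ranged from -0.48 to 0.53 with no call. Col9a1, on chromosome 1, differed by 0.53 (SE 0.17, limma adjusted p = 0.0869) and Col14a1 by -0.48 (SE 0.17, limma adjusted p = 0.106), and in each the groups were apart. Less the median of the brighter genes of chromosome 1, Col9a1 would lie at 0.09. Of the 4 transmembrane genes, Col23a1 differed by 0.44 (SE 0.15, limma adjusted p = 0.103). Col17a1, a hemidesmosome chain of epithelia, differed by 0.19 (SE 0.088, limma adjusted p = 0.190). On its brightest probe set Col17a1 lay at -1.09 and passed in the opposite direction (limma adjusted p = 0.0490). Col28a1 differed by -0.43 (limma adjusted p = 0.206).

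Groups that did not overlap were found for 20 of the 54 members (37.0%), 12 lower and 8 higher, against 35.8% of all genes, with 20.1% lower and 15.7% higher. Of these 20 members, 13 did not pass the test. At an unadjusted p under 0.05, 17 of the 54 members stood below the threshold (31.5%), against 30.3% of all genes. Over the single probe sets of the members, 48 of 2104 passed (2.28%), 16 higher and 32 lower, against 2.87% of all 213361 probe sets with a single gene, of which 1.20% were higher and 1.68% lower. None of the members' probe sets passed when any 1 control array was left out, and 3 passed when any 1 Six2 array was left out. The 48 lay in 25 of the 54 genes. That count grows with the number of probe sets per gene, and the share over all genes was not computed. It is no result about the members. A test of each probe set against the others of its gene found unequal change in none of the 54 members by limma with Simes p-values. It found none in the 18212 genes tested either. At an unadjusted p under 0.05 stood 17 of the 54 members (31.5%) and 15.5% of all genes tested. These 2 shares are not alike, since many members hold far more probe sets than the median gene, which has 8.

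**Figure D4:**
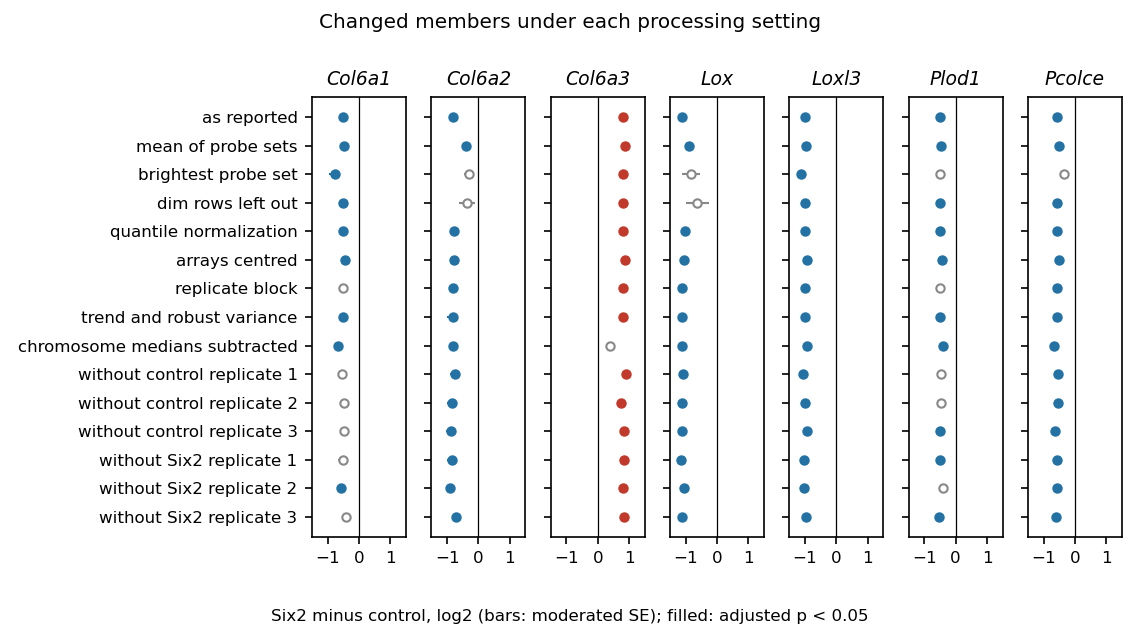
Difference between Six2 and control arrays (log2) of the 7 changed members in the reported analysis and under each of the 14 alternatives, with filled marks where the gene passed. Loxl3 passed throughout, and no changed member turned its sign.

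The rest of the collagen pathway was read from 4 lists of other genes, of which 56 of 58 were measured. Of these 56 genes, 17 changed (30.4%), 8 higher and 9 lower, with a median difference of -0.07. Among all genes 14.7% changed. Among all genes with a mean over 6 the share was 24.6%, but 22 of the 56 reached that mean, so 30.4% and 24.6% cover unlike sets. The lists were chosen with earlier results of these data known, so none of these shares is a result about the pathway. Of the 17 calls, 5 held under all 14 alternatives, those of Tnxb, Sparc, Itga2, Adamts14 and Mmp1a. Leaving out 1 array ended 10 of them, namely 9 without control replicate 1, 10 without control replicate 2, 7 without control replicate 3, and 8, 7 and 5 without Six2 replicates 1, 2 and 3. The brightest probe set also ended 10, those of Crtap, Ddr1, Itga11, Lum, Mia3, Mmp9, Oscar, P3h1, P3h2 and P3h3.

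Of 14 genes for proteoglycans and glycoproteins that regulate fibrils, 3 were lower and none higher. Tnxb, which encodes tenascin-X, a protein that binds fibrillar collagen, read 7.51, 7.72 and 7.53 in control arrays and 5.43, 5.13 and 5.32 in Six2 arrays. The groups lay far apart, and the fall was 2.29 (SE 0.11, limma adjusted p = 0.000185). Sparc, whose product binds collagen and assists its deposition, fell by 0.87 (limma adjusted p = 0.00304). Lum, for the keratan sulphate proteoglycan lumican, was dim and fell by 0.48 (limma adjusted p = 0.0188), a call that ended without control replicates 1 or 2 or Six2 replicates 1 or 2.

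Of 23 measured genes of the rest of the biosynthesis machinery, 4 were higher and 3 lower. Adamts14, a procollagen N-proteinase, rose by 0.87 (limma adjusted p = 0.00541). The prolyl 3-hydroxylase genes split, with P3h2 at 0.68 and P3h3 at 0.64 higher and P3h1 at -0.54 lower (limma adjusted p = 0.0273, 0.0189 and 0.0293). P3h2 and P3h3 were dim, with means of 4.06 and 5.34. Crtap, the partner of the P3h1 protein, fell by 0.33 and Fkbp14, a peptidyl-prolyl isomerase, by 0.55 (limma adjusted p = 0.0392 and 0.0220). Mia3, which loads procollagen for export, rose by 0.38 (limma adjusted p = 0.0436) and lay at -0.06 with the median of its chromosome subtracted. Apart from Adamts14, each of these calls ended when single arrays were left out, that of P3h3 without control replicate 2 or Six2 replicate 2, those of Crtap and Mia3 without any of the 6. Those of P3h2, P3h1 and Fkbp14 ended without any control array or Six2 replicate 1, that of P3h2 also without Six2 replicate 2 and that of P3h1 also without Six2 replicate 3.

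Of 10 measured collagen receptor and uptake genes, 2 were higher and 3 lower. Itga2, the alpha subunit of a collagen-binding integrin, read 7.87, 7.72 and 7.96 in control arrays and 9.03, 9.04 and 8.95 in Six2 arrays. The groups were apart, by 1.16 (limma adjusted p = 0.000886). The discoidin domain receptors, tyrosine kinases that collagen activates, moved in opposite directions, with Ddr2 at 0.52 and Ddr1 at -0.56 (limma adjusted p = 0.0105 and 0.00873). With chromosome medians subtracted neither passed, Ddr2 at 0.09 and Ddr1 at -0.29, and on its brightest probe set Ddr1 was at 0.07. Itga11, another integrin subunit, differed by -0.64 and Oscar, a collagen receptor of osteoclasts, by -0.56 (limma adjusted p = 0.0254 and 0.0432). Itga11 and Oscar were dim, with means of 3.49 and 2.90. The call of Itga11 ended without any control array or Six2 replicates 2 or 3, and that of Oscar without any of the 6 arrays.

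Of 9 collagen-cleaving protease genes, 2 were higher and none lower. Mmp1a, an interstitial collagenase, read 6.53, 7.19 and 7.01 in control arrays and 7.997, 8.004 and 8.09 in Six2 arrays. The groups did not overlap, and the rise was 1.12 (SE 0.17, limma adjusted p = 0.00740). Mmp1b is a close copy of it and differed by 0.43 (limma adjusted p = 0.194), so probes may not fully tell the copies apart. Mmp9, a gelatinase, rose by 0.75 (limma adjusted p = 0.0169), a call that ended without control replicates 1 or 2 or Six2 replicate 1. Mmp9 was dim, with a mean of 5.02.

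**Figure D5:**
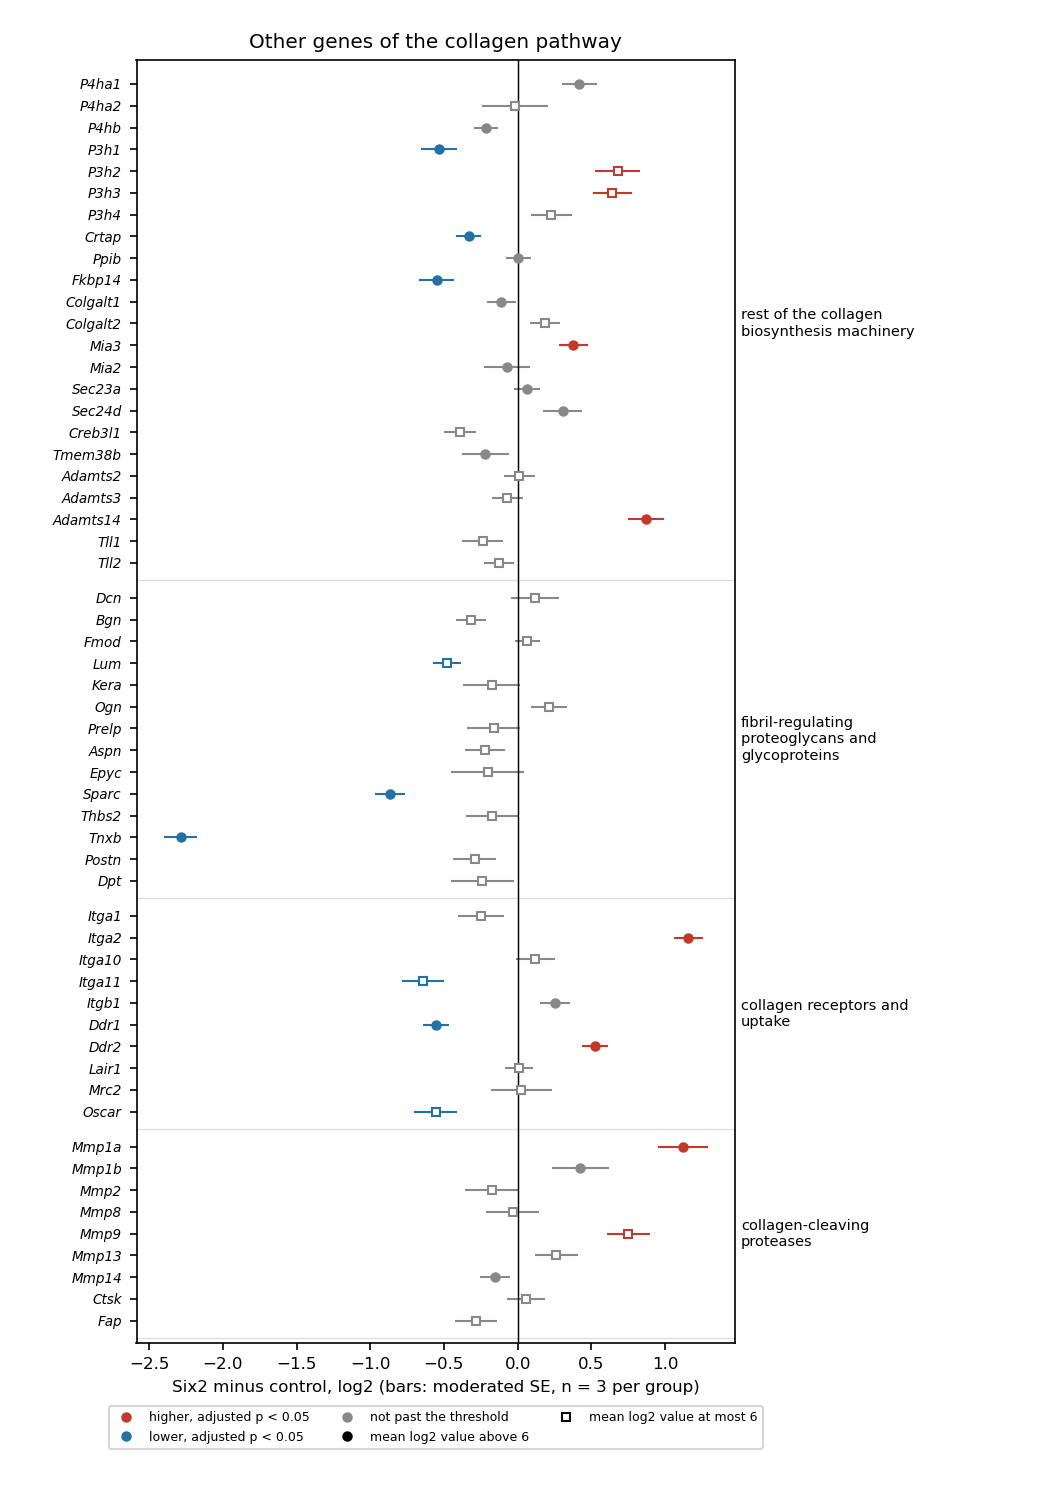
Difference between Six2 and control arrays (log2) of the 56 other collagen pathway genes in 4 lists, 3 arrays per group. Bars show the moderated SE from limma. Red or blue marks the 17 genes that passed, from Tnxb at -2.29 to Itga2 at 1.16. Filled marks are brighter genes and open marks are dim genes, whether or not they passed.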

How the data were processed

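Total RNA (6 ug per array, per the labels' protocols) was biotin-labelled and hybridised. The authors deposited log2 values per probe set, for which the submitters' processing notes name RMA and Affymetrix Power Tools. Neither versions nor the array build were stated there. RMA makes the distributions of arrays alike, so a change in total RNA is not visible. Of the rows, 213361 had 1 gene symbol, 5107 several and 23108 none. Of 20893 symbols, 18496 stood in RefSeq as given, 2354 were updated through a synonym and 43 were not found. A gene was the median of its single-gene probe sets (median 8 per gene, 2636 genes with 1).

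Groups were compared with limma 3.58.1 (lmFit, eBayes) in R 4.3.3, two-sided, with Benjamini-Hochberg adjustment over all 20848 genes or all probe sets. SE is moderated. No dim gene was filtered. The steps were tested on simulated data. Members, lists and naming rule were chosen with earlier results of these data known. Named were changed members, neighbouring pairs, type I chains, up to 2 others per class by smallest p, and changed pathway genes, up to 4 per list and direction. Fkbp10 and Gp6 were not analysed here. RefSeq promoters were matched by symbol for 40 of 54 members. Alternatives were the mean or brightest probe set, dim rows left out, quantile normalization, centring, a replicate block, trend and robust variance, chromosome medians subtracted (genes with a mean over 6), and each array left out. Scan dates were not used here, and batch and group cannot be told apart.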

Additional observations from a re-analysis of the deposited data

How the results depend on the processing

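With 3 arrays per group and many dim members, small differences were not detectable. Values are log2 differences or counts of calls by limma. Of the members, 15 changed with the mean of probe sets (7 with the median) and 5 to 10 under the other alternatives, of which 5 to 7 with 1 array left out. Of the 47 uncalled members, 12 passed under at least 1 alternative, 10 in the same direction and 2 (Col17a1 and Col20a1) in the opposite one. Over all genes 4858 changed with the mean of probe sets against 3068, and 1565 to 2447 with 1 array left out. Centring the arrays gave 1695 higher and 1283 lower genes and quantile normalization 1641 and 1585, against 1396 and 1672. Of the other pathway genes, 7 to 12 changed with 1 array left out, against 17. Of the members' probe sets, 118 passed with dim rows left out, 159 with trend and robust variance and 0 to 3 with 1 array left out, against 48. Unequal change among probe sets gave 0 members under every alternative run for it.

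Same-numbered arrays did not deviate together (r = -0.006, -0.008 and -0.054), so no pairing by number was seen. The labels do not say whether the samples were paired. With the replicate block 5 members, 11 other pathway genes, 1828 genes and 0 of the members' probe sets passed.

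Some uncalled differences of the named genes, and those of Mia3, Ddr1 and Oscar, turned their sign, and the cause was not tested. With the mean of probe sets these were Col4a4 (-0.0035), Col5a2 (-0.0040), Col1a1 (0.026), Col1a2 (-0.082) and Col15a1 (-0.020). On the brightest probe set they were Col4a2 (-0.027), Col4a3 (0.49), Col5a2 (-0.39), Col1a1 (0.27), Col1a2 (-0.21), Col8a2 (0.093), Col17a1 (-1.09), Plod3 (-0.18), Loxl1 (-0.050), Col6a6 (0.13) and Ddr1 (0.073). Col20a1, named after its values were seen, turned there from -0.11 to 0.86 and passed (limma adjusted p = 0.0353). With dim rows left out they were Col4a4 (-0.24), Col4a5 (-0.028), Col5a2 (-0.075), Col1a2 (-0.12), Col15a1 (-0.12), Col8a2 (0.41), Col11a1 (-0.18), Loxl1 (-0.087), Col6a6 (0.0062) and Oscar (0.47). Quantile normalization turned Col4a3 (0.041), and centring turned Col4a3 (0.030) and Col1a1 (0.017). With chromosome medians subtracted, which left genes with a mean of 6 or less unshifted, they were Col4a1 (-0.015), Col4a2 (-0.00059), Col8a1 (0.033) and Mia3 (-0.060). Among dim members, less the median of their chromosome, Col4a4 would lie at -0.43, Col5a2 at -0.21, Col1a1 at 0.072, Col5a3 at -0.091 and Col22a1 at 0.059, also turned. With 1 array left out, Col4a3 ran from -0.14 to 0.073, Col4a4 from -0.20 to 0.14, Col1a1 from -0.21 to 0.055 and Col1a2 from -0.040 to 0.23.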

Other observations

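Another 3 collagen chains stand in the platform annotation under older symbols and were not among the members. Col26a1 (listed as Emid2) differed by -0.19, Col6a4 (listed as Dvwa) by -0.17 and Col6a5 (listed as Gm7455) by 0.14, and none passed (limma adjusted p = 0.390, 0.297 and 0.554). A further 9 probe sets name a member together with another gene, and none passed. Those that name Col10a1 and Nt5dc1 differed by -0.97 and 1.24, the one for Tcfl5 and Col9a3 by 0.52, and the one for Col7a1 and Mir711 by -0.34.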
